A study of Mus musculus with 19 samples.

Results

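The bone morphogenetic protein (BMP) pathway was followed through 9 of its genes in RNA from mouse small intestinal crypts: the ligand gene Bmp2, the receptor genes Bmpr1a and Bmpr2, the target genes Id1, Id2 and Id3, the inhibitory SMAD genes Smad6 and Smad7, and Bambi, a decoy receptor. The 9 were matched by gene symbol among 55487 listed genes. All 9 passed the filter on low counts and are among the 17877 genes tested.

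Crypts are the epithelial pits that hold the intestinal stem cells and the dividing progenitors. The samples were 19 mice with 1 library each: among mice with free access to food (ad libitum) 5 were NT+/+ and 4 NT-/-, and among mice that went 48 h without food but with water 5 were of each genotype. NT-/- mice lack neurotensin, a peptide hormone of enteroendocrine cells encoded by Nts, in the whole body. All were adult C57BL/6 mice of both sexes. The study describes the ad libitum-fed controls of its fasting experiments as littermates matched for sex and age. Whether NT+/+ and NT-/- mice were littermates of each other is not given in the sources used here. The labels do not say whether these mice carried the Lgr5-EGFP reporter used elsewhere in the study. Crypts came from the proximal part of the small intestine and were freed with EDTA, a preparation that keeps epithelium of several cell types. Fewer cells of a type and less RNA per cell cannot be told apart in such bulk RNA.

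BMP ligands bind a complex of type I receptors, such as BMPR1A, and type II receptors, such as BMPR2. The receptors phosphorylate SMAD1, SMAD5 and SMAD9, which enter the nucleus with SMAD4 and switch on the Id genes, whose products hold back basic helix-loop-helix transcription factors, and the inhibitory SMADs, which feed back on the receptors. In the intestine BMP activity is highest toward the villus and restrains stem cells, while antagonists made by cells around the crypt base keep it low there. The data were used to ask whether expression of these genes followed diet, neurotensin genotype or neither.

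Library totals ranged from 9059478 to 35068719 counts (median, 18541821), and the shallowest libraries were fasted NT-/- mice 2 and 4. Levels of a gene between mice are in CPM, counts scaled to a fixed library size with TMM factors, which correct for differences in RNA composition. Nts was at 6.75 to 8.59 CPM in fed and 4.98 to 5.71 CPM in fasted NT+/+ mice, and at 0.144 to 0.792 CPM in the NT-/- mice. The genotype label of fasted NT+/+ mouse 5 disagrees with its title; it was grouped by title, and its Nts level was 5.43 CPM. Epithelial markers (Epcam, Cdh1, Krt8 and Vil1) summed to 5142 ± 264 CPM in fed NT+/+ mice (mean ± SD, n = 5). In the same mice 6 stromal fibroblast markers summed to 2.81 ± 1.57 CPM, 4 smooth muscle markers to 2.31 ± 1.28 CPM and 4 endothelial markers to 1.44 ± 0.287 CPM. Immune cells were present at more than these levels: 7 immune markers summed to 73.3 ± 22.8 CPM in fed NT+/+ and 97.6 ± 16.3 CPM in fasted NT-/- mice.

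Per length, the order of the 9 genes was the same in the 4 groups apart from changes of place between the first 2 and among the last 3. In TPM, the deposited length-scaled level (mean ± SD over 19 mice), Id1 was at 34.2 ± 9.14 and Bmpr1a at 33.7 ± 3.64, followed by Id3 at 27.1 ± 4.53. Id2 was at 15.7 ± 3.96 TPM, Smad7 at 13.7 ± 3.77 TPM and Bmpr2 at 8.58 ± 1.42 TPM. The lowest levels were those of Bmp2 at 4.64 ± 2.07 TPM, Smad6 at 3.76 ± 0.975 TPM and Bambi at 3.22 ± 0.932 TPM. Id1 and Bmpr1a, Id2 and Smad7, Bmp2 and Smad6, and Smad6 and Bambi were closer to each other than their SDs between mice. The order within those pairs was not tested mouse by mouse. The mean of Bmp2 was above that of Bambi in all 4 groups.

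Fasting moved 1 of these genes past the threshold in NT+/+ mice and 0 in NT-/- mice. At an adjusted p under 0.05 (edgeR's quasi-likelihood test, adjusted over all genes tested), 1 of 9 was called in NT+/+ mice, where 21.6% of all genes were called (11.2% higher and 10.4% lower). In NT-/- mice, 0 of 9 were called by edgeR and 1 by DESeq2, against 25.1% of all genes by edgeR (12.5% higher and 12.6% lower) and 26.4% by DESeq2. At an edgeR unadjusted p under 0.05 there was 1 of 9 in NT-/- mice, beside 6524 of all 17877 genes. The median log2 fold change of the 9 was -0.04 in NT+/+ mice, beside -0.01 for all genes, and 0.18 in NT-/- mice, beside -0.02. The CPM ranges of fed and fasted mice were separate for 0 of 9 genes in NT+/+ mice, against 14.6% of all genes, and for 1 of 9 in NT-/- mice, Bmpr1a, against 21.3%.

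**Figure D1:**
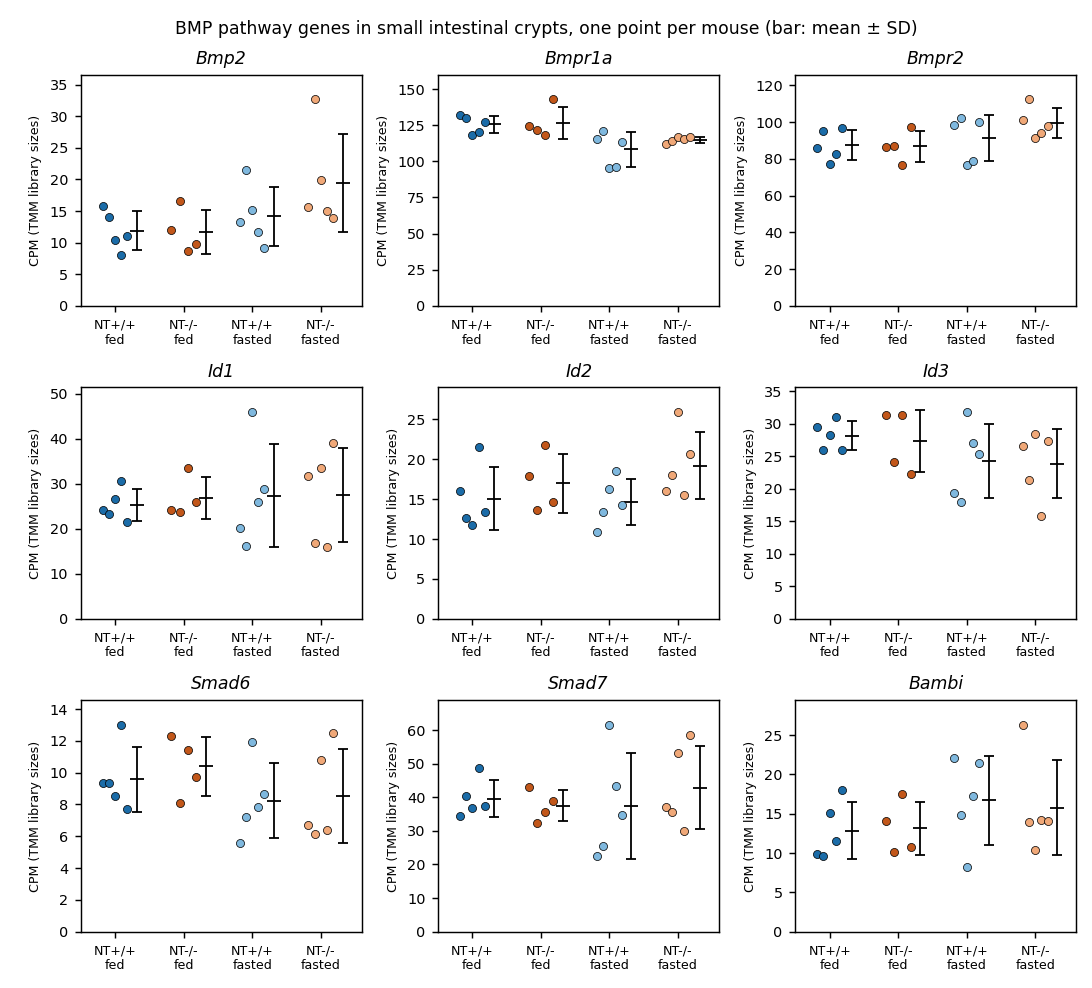
Level of each of the 9 genes in every mouse, in CPM on axes that start at 0, by genotype and diet; bars give the mean ± SD of 4 or 5 mice. Fed and fasted groups overlap for every gene except Bmpr1a in NT-/- mice, and Id1 and Smad7 spread wider among fasted than among fed mice.

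Bmp2 (chromosome 2, 133552159 to 133562885, plus strand of GRCm38) encodes a secreted BMP ligand and had the largest log2 fold change of the 9 genes in fasted NT-/- mice, just short of the threshold. Its CPM was 15.8, 14.1, 10.5, 8.02 and 11.1 in fed NT+/+ mice 1 to 5 and 11.9, 16.6, 8.62 and 9.80 in fed NT-/- mice 1 to 4. In fasted mice it was 13.3, 21.4, 15.2, 11.7 and 9.24 in NT+/+ mice 1 to 5 and 15.6, 32.7, 19.9, 14.99 and 13.9 in NT-/- mice 1 to 5. Fasted NT-/- mouse 2 was the highest of all 19 mice, and the fasted and fed ranges overlapped in both genotypes. In the fit, the log2 fold change on fasting was 0.72 (SE 0.27, adjusted p = 0.0606) in NT-/- and 0.24 (SE 0.26, adjusted p = 0.545) in NT+/+ mice.

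The Bmp2 result in NT-/- mice depended on the fit. Mice of different groups share a number in the deposited file names, and same-numbered mice deviated together across genes; what the number stands for is not given in the sources used here. With that number as a block the log2 fold change was 0.69 (SE 0.15, adjusted p = 0.00270), and with the number of the titles as a block it was 0.78 (SE 0.17, adjusted p = 0.00199). Within the 4 same-numbered NT-/- pairs, Bmp2 was higher after fasting in 4 of 4, by a mean of 0.62 ± 0.26 (SD, n = 4) on the log2(CPM + 1) scale (exact sign permutation, two-sided p = 0.125, the smallest 4 pairs allow). DESeq2 also called it (0.74, adjusted p = 0.0279). Without fasted NT-/- mouse 2 the value was 0.46 (adjusted p = 0.197), and leaving out the 2 shallowest libraries, of which it is 1, gave 0.49 (adjusted p = 0.217). With sex as a covariate it was 0.83 (adjusted p = 0.0385), in a fit that left out the 1 mouse without a sex label. That fit tested 17744 genes, the same number as the fit without fasted NT-/- mouse 5, which alone gave 0.82 (adjusted p = 0.0438). The part of sex apart from the missing mouse was not tested. Without fed NT-/- mouse 2 or fasted NT+/+ mouse 2 the adjusted p was 0.0314 and 0.0466. Between mice of a group, deviations of Bmp2 had r = 0.62 with the summed goblet cell markers and r = 0.507 with the tuft cell markers. With the stromal fibroblast markers, at a sum of at most 5.65 CPM in any mouse, r was -0.641. It was -0.502 with the stem cell and -0.471 with the smooth muscle markers. These are descriptions over 19 mice whose part in the result was not tested. The interaction of diet and genotype for Bmp2 was 0.47 (SE 0.37, adjusted p = 1.00), with a 95% interval of -0.30 to 1.25.

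Bmpr1a (chromosome 14, 34410734 to 34503341, minus strand) encodes the type I receptor of BMP2 and was the 1 gene of the 9 called in NT+/+ mice, where it fell after fasting. Its CPM was 132, 130.3, 118, 120.5 and 127 in fed NT+/+ mice and 116, 121, 95.1, 95.9 and 114 in fasted NT+/+ mice, so 1 of the fasted mice was within the fed range. In NT-/- mice it was 124, 122, 118 and 143 fed and 112, 114, 117, 115 and 117 fasted, with every fasted mouse below every fed mouse but by small margins. In the fit, the log2 fold change was -0.22 (SE 0.07, adjusted p = 0.0370) in NT+/+ mice, a fall to 0.861 of the fed level, and -0.14 (SE 0.08, adjusted p = 0.191) in NT-/- mice. Within same-numbered pairs Bmpr1a was lower after fasting in 5 of 5 NT+/+ pairs and 4 of 4 NT-/- pairs (exact sign permutation, p = 0.0625 and 0.125, the smallest possible).

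The call for Bmpr1a in NT+/+ mice was a narrow one. It was lost without a filter on low counts (adjusted p = 0.0872), with only the NT+/+ groups in the fit (0.079), without the 2 shallowest libraries (0.0511), and without fed NT+/+ mouse 1 (0.0832), 2 (0.0749) or 5 (0.0696) or fasted NT+/+ mouse 3 (0.0997) or 4 (0.1101). The log2 fold change was between -0.26 and -0.17 in all fits that left out 1 mouse. An antisense gene, Gm17110, overlaps Bmpr1a, but had a mean of 5.79 counts per mouse beside 2205 for Bmpr1a. Between mice of a group, deviations of Bmpr1a had r = 0.522 with the summed dividing cell markers, of which 3 of 5 were called lower on fasting in NT+/+ mice (10.4% of all genes were), and r = -0.288 with the villus enterocyte markers, descriptions over 19 mice whose part in the result was not tested.

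Bmpr2 (chromosome 1, 59763400 to 59879014, plus strand) encodes the type II receptor. Its CPM was 85.8, 95.2, 77.2, 82.5 and 96.9 in fed and 98.5, 102, 76.6, 78.98 and 100.05 in fasted NT+/+ mice, and 86.4, 86.9, 76.8 and 97.3 in fed and 101, 112, 91.1, 94.00 and 97.8 in fasted NT-/- mice. Both pairs of ranges overlapped. On fasting, the log2 fold change was 0.06 (SE 0.09, adjusted p = 0.704) in NT+/+ and 0.19 (SE 0.10, adjusted p = 0.171) in NT-/- mice; with the number of the file names as a block the latter was 0.24 (SE 0.06, adjusted p = 0.00654), and with the number of the titles 0.17 (adjusted p = 0.102). In same-numbered pairs it was higher after fasting in 4 of 4 NT-/- pairs and 3 of 5 NT+/+ pairs.

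**Figure D2:**
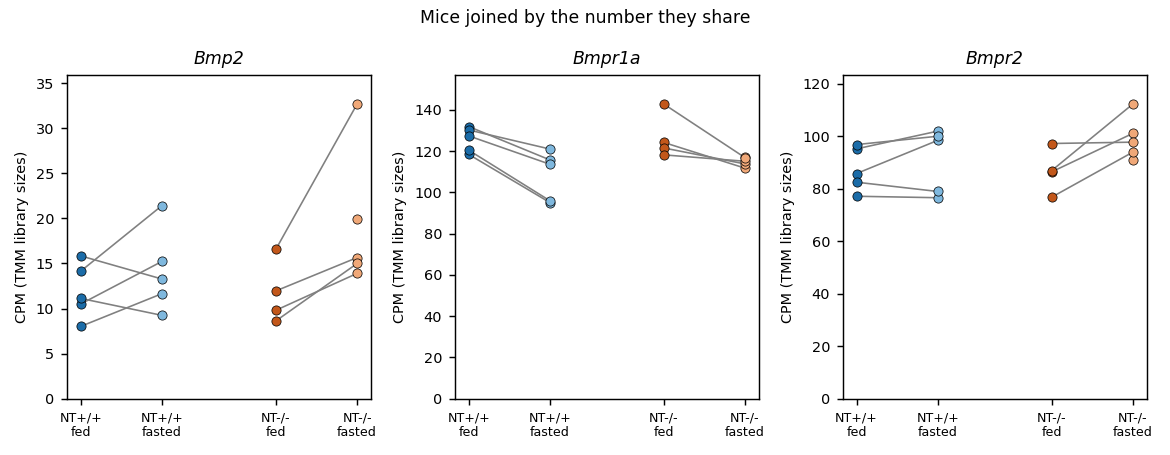
Bmp2, Bmpr1a and Bmpr2 in CPM, with a line from each fed to each fasted mouse of the same genotype that shares its number in the file names; fasted NT-/- mouse 3 has no fed partner. The lines for Bmp2 rise in 4 of 4 NT-/- pairs and in 3 of 5 NT+/+ pairs, and those for Bmpr1a fall in all 9 pairs.

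Promoter sequences are shown for Id2, Id3 and Smad6, the BMP target genes among the 9 that were found in the RefSeq table (build GRCm38.p6), because the levels of these genes were correlated between mice, as described further on. Each runs 5′ to 3′ on the strand of the gene from 250 bases before to 50 bases after the RefSeq start, with capitals for the SMAD1 and SMAD5 box GGCGCC and the SMAD4 box CAGAC, or its reverse complement GTCTG. Id2 lies at chr12:25096043-25096342 on the minus strand, Id3 at chr4:136143572-136143871 on the plus strand and Smad6 at chr9:64022010-64022309 on the minus strand.
Id2: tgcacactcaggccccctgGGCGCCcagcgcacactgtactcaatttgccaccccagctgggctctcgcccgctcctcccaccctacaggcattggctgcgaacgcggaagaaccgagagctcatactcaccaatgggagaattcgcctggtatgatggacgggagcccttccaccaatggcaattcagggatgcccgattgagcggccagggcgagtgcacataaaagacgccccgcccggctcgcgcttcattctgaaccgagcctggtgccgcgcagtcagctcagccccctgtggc
Id3: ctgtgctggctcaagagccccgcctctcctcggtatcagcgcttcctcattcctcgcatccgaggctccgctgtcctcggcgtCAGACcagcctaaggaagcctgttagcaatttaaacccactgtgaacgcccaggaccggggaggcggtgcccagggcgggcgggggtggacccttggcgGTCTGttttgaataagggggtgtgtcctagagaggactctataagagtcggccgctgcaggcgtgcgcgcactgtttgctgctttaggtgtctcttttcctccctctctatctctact
Smad6: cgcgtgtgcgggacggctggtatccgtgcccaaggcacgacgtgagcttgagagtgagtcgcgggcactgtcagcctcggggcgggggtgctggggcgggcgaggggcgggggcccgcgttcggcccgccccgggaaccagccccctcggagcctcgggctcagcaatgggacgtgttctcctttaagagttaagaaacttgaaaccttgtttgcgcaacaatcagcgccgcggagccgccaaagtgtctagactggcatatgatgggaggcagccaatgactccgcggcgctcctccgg
The Id2 window held 1 GGCGCC, at bases -231 to -226 from the start. The Id3 window held CAGAC at -167 to -163 and GTCTG at -68 to -64, and the Smad6 window held neither box. Over 32851 promoters of the same length, 11.9% held GGCGCC and 49.6% held CAGAC on either strand, so such matches are common and are given as descriptions. The windows of the receptor genes Bmpr1a and Bmpr2 each held 1 GGCGCC and no CAGAC. Id1, Smad7, Bambi and Bmp2 were not matched, so 5 of the 9 genes were.

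Id1, Id2 and Id3 encode inhibitors of DNA binding and are widely used readouts of BMP signaling. Id1 (chromosome 2, 152736251 to 152737410) had 24.2, 23.3, 26.6, 30.8 and 21.6 CPM in fed NT+/+ mice and 24.1, 23.8, 33.6 and 25.9 CPM in fed NT-/- mice. In fasted mice Id1 was at 20.2, 16.2, 45.9, 25.98 and 28.8 CPM in NT+/+ and 31.7, 16.9, 33.6, 16.1 and 39.2 CPM in NT-/- mice. The fasted mice reached both above and below every fed mouse, while the group means, 25.3 ± 3.55 and 27.4 ± 11.5 CPM in NT+/+ and 26.9 ± 4.60 and 27.5 ± 10.4 CPM in NT-/- mice, lay close together. In the fit, the log2 fold change on fasting was 0.12 (SE 0.25, adjusted p = 0.779), with an interval of -0.40 to 0.64, in NT+/+ and 0.05 (SE 0.26, adjusted p = 0.919), with an interval of -0.50 to 0.60, in NT-/- mice.

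Id2 (chromosome 12, 25093799 to 25097140) was at 15.98, 12.7, 11.8, 21.6 and 13.3 CPM in fed NT+/+ and 17.9, 13.6, 21.8 and 14.6 CPM in fed NT-/- mice. After fasting it was at 10.8, 13.4, 16.3, 18.6 and 14.2 CPM in NT+/+ and 16.02, 18.04, 25.9, 15.5 and 20.6 CPM in NT-/- mice, and all 4 groups overlapped. Its log2 fold change on fasting was -0.04 (SE 0.19, adjusted p = 0.906) in NT+/+ and 0.18 (SE 0.20, adjusted p = 0.550) in NT-/- mice.

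Id3 (chromosome 4, 136143497 to 136145755) was at 29.5, 25.98, 28.3, 31.1 and 25.9 CPM in fed NT+/+ and 31.4, 24.2, 31.4 and 22.3 CPM in fed NT-/- mice. After fasting it was at 19.3, 18.01, 31.8, 27.1 and 25.4 CPM in NT+/+ and 26.5, 21.3, 28.4, 15.8 and 27.4 CPM in NT-/- mice. The lowest values were those of fasted mice, and the highest fasted mouse was above all fed mice. The log2 fold change was -0.21 (SE 0.16, adjusted p = 0.389) in NT+/+ and -0.19 (SE 0.17, adjusted p = 0.470) in NT-/- mice.

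Smad6 and Smad7 encode the inhibitory SMADs, which block the receptor SMADs and are themselves switched on by BMP signals. Smad6 (chromosome 9, 63953076 to 64022059) was at 9.36, 9.34, 8.52, 12.99 and 7.69 CPM in fed NT+/+ and 12.3, 8.12, 11.4 and 9.75 CPM in fed NT-/- mice. After fasting Smad6 was at 5.56, 7.23, 11.9, 7.82 and 8.68 CPM in NT+/+ and 6.73, 6.13, 10.8, 6.41 and 12.5 CPM in NT-/- mice. The lowest mouse of each fasted group was below every fed mouse of its genotype. Smad7 (chromosome 18, 75367529 to 75395935) was at 34.5, 40.3, 36.8, 48.7 and 37.4 CPM in fed NT+/+ and 43.02, 32.3, 35.6 and 38.8 CPM in fed NT-/- mice. After fasting Smad7 was at 22.5, 25.4, 61.5, 43.3 and 34.7 CPM in NT+/+ and 37.1, 35.5, 53.3, 30.1 and 58.4 CPM in NT-/- mice. For both genes the fasted values ran on both sides of the fed mean. On fasting, the log2 fold change of Smad6 was -0.21 (SE 0.22, adjusted p = 0.533) in NT+/+ and -0.27 (SE 0.23, adjusted p = 0.430) in NT-/- mice. That of Smad7 was -0.07 (SE 0.22, adjusted p = 0.853) in NT+/+ and 0.20 (SE 0.23, adjusted p = 0.584) in NT-/- mice.

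Bambi (chromosome 18, 3507923 to 3516404) encodes a receptor without a kinase domain that dampens BMP and related signals. It was at 9.88, 9.65, 15.1, 11.5 and 18.03 CPM in fed NT+/+ and 14.1, 10.2, 17.5 and 10.8 CPM in fed NT-/- mice. After fasting it was at 22.1, 14.8, 8.18, 17.2 and 21.4 CPM in NT+/+ and 26.3, 13.96, 10.4, 14.2 and 14.1 CPM in NT-/- mice. Fasted NT-/- mouse 1 stood apart from the rest of its group. In the fit, the log2 fold change was 0.38 (SE 0.27, adjusted p = 0.334) in NT+/+ and 0.27 (SE 0.28, adjusted p = 0.543) in NT-/- mice, and without that mouse the latter was -0.0058. Over the 19 mice, deviations of Bambi from its group means had r = 0.635 with the summed stem cell markers and r = 0.578 with the Paneth cell markers, given as descriptions.

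**Figure D3:**
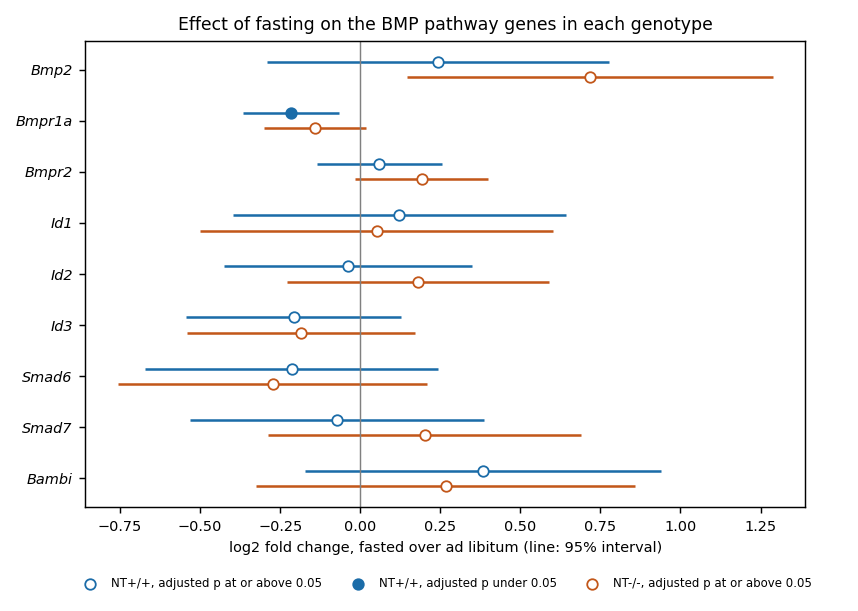
Log2 fold change of fasted over ad libitum-fed mice with its 95% interval for the 9 genes in NT+/+ and NT-/- mice; a filled point is past an adjusted p of 0.05. Bmpr1a in NT+/+ mice (-0.22) is the only filled point, and Bmp2 in NT-/- mice (0.72) is the largest value.

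Loss of neurotensin was followed by no call among the 9 genes on either diet. In ad libitum-fed mice 0 of 9 were called by edgeR and 0 by DESeq2, and 0 had an unadjusted p under 0.05, against 1 gene of all tested by edgeR, Nts itself (0.00559%), 3 by DESeq2 (0.0168%), and 1.67% at an unadjusted p under 0.05 by edgeR. Their log2 fold changes in NT-/- over NT+/+ mice lay between -0.08 and 0.17, with a median of 0.01 beside -0.001 for all genes. In fasted mice 0 of 9 were called by edgeR and 0 by DESeq2, against 0.00559% of all genes by edgeR and 0.565% (101 genes) by DESeq2, and 1 of 9 had an edgeR unadjusted p under 0.05, against 9.14%. That gene was Id2, whose means were 14.7 ± 2.92 CPM in the NT+/+ and 19.2 ± 4.25 CPM in the NT-/- mice, a log2 fold change of 0.39 (SE 0.19, edgeR unadjusted p = 0.0478, adjusted p = 0.538). The other 8 lay between -0.08 and 0.45, and the median of the 9 was 0.09 beside -0.01. CPM ranges of the genotypes overlapped for all 9 genes on both diets, where 0.682% of all genes in fed and 1.56% in fasted mice did not overlap. The widest 95% intervals in fed mice, those of Bambi and Bmp2, were -0.55 to 0.63 and -0.59 to 0.54, so differences within these bounds could not be told from 0.

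Bmp2 had the second lowest p of the 9 in fasted mice. It was higher in NT-/- than in NT+/+ mice in 5 of 5 same-numbered pairs, by a mean of 0.41 ± 0.15 (SD, n = 5) on the log2(CPM + 1) scale (exact sign permutation, two-sided p = 0.0625, the smallest 5 pairs allow). In the fit the difference was 0.45 (SE 0.26, adjusted p = 0.645), and with the number of the file names as a block it was 0.44 (SE 0.14, adjusted p = 0.165). Without fasted NT-/- mouse 2 it was 0.19. With the mouse of disagreeing labels grouped as NT-/- it was also 0.19, although the Nts level of that mouse was within the range of the fasted NT+/+ mice and above every NT-/- mouse. In the test of whether fasting acted differently in the genotypes, 0 of 9 genes were called by edgeR, 0 by DESeq2 and 0 passed an unadjusted p of 0.05, beside 0% of all genes by adjusted and 2.7% by unadjusted p. Those 9 differences lay between -0.12 and 0.47 on the log2 scale, with a median of 0.07 beside -0.01 for all genes.

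The 5 target genes, Id1, Id2, Id3, Smad6 and Smad7, differed between mice of a group, and the genes shared these differences. Deviations from the group means, in log2(CPM + 1), were correlated over the 19 mice for the 36 pairs of the 9 genes, with p from 100000 permutations within groups and adjusted over the 36 pairs. Smad6 and Smad7 had r = 0.868 (Spearman's rho 0.858; permutation p = 7e-05, adjusted 0.00144), and Id1 and Id3 had r = 0.861 (rho 0.854; permutation p = 8e-05, adjusted 0.00144). Id1 and Smad7 had r = 0.813 (rho 0.777; permutation p = 0.00213, adjusted 0.00907). Over the 10 pairs among Id1, Id2, Id3, Smad6 and Smad7, r ran from 0.53 to 0.868 with a median of 0.766, and 9 of 10 had an adjusted p under 0.05. The exception was Id1 with Id2 (r = 0.53, rho 0.582, permutation adjusted p = 0.0703). Of the other 26 pairs 1 had an adjusted p under 0.05, that of the receptor genes Bmpr1a and Bmpr2 (r = 0.795, rho 0.707, permutation adjusted p = 0.00907). The receptor genes had r between -0.596 and -0.276 with the target genes, and Bmp2 and Bambi had r between -0.475 and 0.311 with every other gene of the 9.

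**Figure D4:**
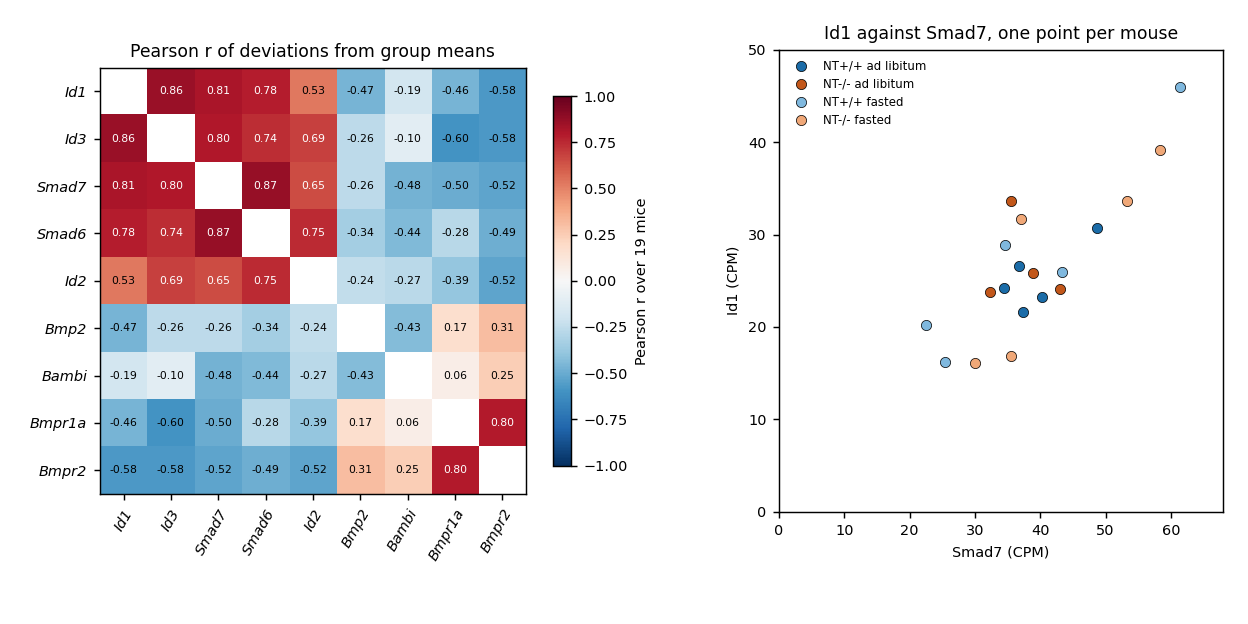
Left, Pearson r over 19 mice of the deviations from group means for each pair of the 9 genes; right, Id1 against Smad7 in CPM, 1 point per mouse, coloured by group. The 5 target genes form a block of r from 0.53 to 0.868, and on the right the mice of all groups lie along 1 band, with fasted mice at both ends.

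The shared differences were large enough to see in single mice. Fasted NT+/+ mouse 3 had the highest level of all 19 mice for Id1 (45.9 CPM), Id3 (31.8 CPM) and Smad7 (61.5 CPM). Fasted NT-/- mouse 5 was the second highest for Id1, Smad6 and Smad7, and fed NT+/+ mouse 4 was the highest for Smad6 (12.99 CPM). At the other end, fasted NT+/+ mouse 1 was the lowest for Id2 (10.8 CPM), Smad6 (5.56 CPM) and Smad7 (22.5 CPM), and fasted NT-/- mouse 4 for Id1 (16.1 CPM) and Id3 (15.8 CPM). High and low mice occurred in both genotypes, but some that shared a number and a diet were high or low together. Ranked from 1, the highest, to 19, the mean rank over the 5 target genes was 3.0 and 4.0 in the fasted NT+/+ and NT-/- mice numbered 3, and 16.8 and 14.0 in those numbered 2. Averaged over the genotypes, the 5 genes deviated with one sign in 7 of 9 such pairs of mice. That count does not measure likeness between the mice of a pair, because the 5 genes varied together from mouse to mouse. No count for mice of different numbers is given beside it. The ratio of the highest to the lowest mouse was 2.86 for Id1, 2.73 for Smad7, 2.39 for Id2, 2.34 for Smad6 and 2.01 for Id3, against 1.503 for Bmpr1a and 1.47 for Bmpr2. Bmp2, at 4.08, and Bambi, at 3.21, varied more, and their r with each of the target genes was below 0.

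Id2 and Smad6, of which the first held a GGCGCC in the promoter window printed above and the second held neither box, had r = 0.749 (rho 0.796, permutation adjusted p = 0.00907). Of the 17876 other genes, Id3 was the third most correlated with Id1 and Smad7 the third with Smad6, whereas Id2 was 885th with Id1, and the 5 target genes had a median r near 0 with all genes and a 99th percentile of r between 0.601 and 0.719. Leaving out each mouse in turn kept the median of the 10 pairs between 0.723 and 0.827, and leaving out the 2 mice farthest from the median of the first gene gave r from 0.542 to 0.833. With the number of the file names removed as well, r was 0.546 to 0.839. That step removes what same-numbered mice share across both diets, not what they share within 1 diet. In the 9 differences between the genotypes within a number and a diet, centred by diet and added after seeing the data, the 10 pairs had r from 0.411 to 0.836 with a median of 0.695, given as a description with no p. The permutation p-values take the mice of a group as independent of their number.

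Other measures moved with the target genes between mice. Deviations in the log2 library total had r from 0.31 with Id2 to 0.641 with Id3, and those in the number of genes with a count had r from 0.53 to 0.693 with the 5 genes. Without the 2 shallowest libraries the 10 pairs still had r from 0.493 to 0.848. The summed villus enterocyte markers had r from 0.11 with Id1 to 0.554 with Smad7, the dividing cell markers from -0.529 to -0.246, and the immune markers from 0.162 to 0.593. The stromal fibroblast markers had r from 0.248 to 0.556, at a sum of at most 5.65 CPM in any mouse. The smooth muscle markers had r from 0.275 to 0.624, at a sum of at most 4.12 CPM. For the tuft cell markers r ran from -0.476 to -0.271, for the stem cell markers from -0.311 to 0.095 and for the Paneth cell markers from -0.302 to 0.276. Goblet cell markers had r from -0.359 to 0.079 and enteroendocrine markers from 0.098 to 0.414. These values, given as descriptions over 19 mice with no p, relate the target genes to depth and to summed marker RNA, not to cell numbers. The part of depth and of cell makeup in the shared differences was not tested.

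The spread between mice of a group was wider after fasting for Id1 and Smad7. The pooled SD of log2(CPM + 1) was 0.205 in fed and 0.562 in fasted mice for Id1, a ratio of 2.74, and 0.18 and 0.492 for Smad7, a ratio of 2.73. For Id3 the ratio was 1.83, for Smad6 1.57 and for Id2 0.898, and the median over all genes was 1.24, with 12.6% of genes at 2 or more. A ratio as large as that of Id1 or larger was found in 3.52% of genes, and a ratio of at least that of Smad7 in 3.6%. Without the 2 shallowest libraries the ratio was 2.23 for Id1, which 8.47% of genes reached, and 2.8 for Smad7, which 3.32% reached. Bmp2, at 1.24, and Bmpr1a, at 1.22, were near the median gene. These ratios were noticed in the data and were not tested.

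Over 5 lists of other genes of the pathway, which also hold Bmp2, Bmpr1a and Bmpr2, fasting called 9 of 37 tested genes in NT+/+ mice (24.3%) and 8 of 37 in NT-/- mice (21.6%), shares near those of all genes (21.6% and 25.1%). Of 13 ligand genes 6 were tested, and 1 rose in each genotype: Bmp8b, which reached 2.56 ± 0.336 CPM in fasted NT+/+ mice from 1.67 ± 0.292 (log2 fold change 0.62, SE 0.22, adjusted p = 0.0473) and 2.77 ± 0.665 CPM in fasted NT-/- mice from 1.495 ± 0.464 (log2 fold change 0.87, SE 0.23, adjusted p = 0.0100). Bmp8b is a low-level gene, and its call in NT+/+ mice was lost in 13 of the 19 fits that left out 1 mouse (adjusted p up to 0.114). In NT-/- mice the call was lost without the 2 shallowest libraries (0.68, adjusted p = 0.0691). Bmp3, the ligand gene with the most TPM, had a log2 fold change of 0.52 (SE 0.23, adjusted p = 0.109) in NT+/+ and 0.25 (SE 0.24, adjusted p = 0.494) in NT-/- mice. The median log2 fold change of the 6 was 0.22 in NT+/+ and 0.19 in NT-/- mice. Bmp4, a ligand of the mesenchyme, had 25 counts over all 19 mice and was not tested.

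Among 13 symbols of receptors and co-receptors, of which Hfe2 and Hjv name the same gene, 9 were tested. In NT+/+ mice 1 rose and 1, Bmpr1a, fell, beside 11.2% and 10.4% of all genes. In NT-/- mice 1 rose and 0 fell, beside 12.5% and 12.6%. Tgfbr3, which encodes the co-receptor betaglycan, had 8, 17, 5, 26 and 7 counts in fed and 16, 15, 26, 38 and 23 counts in fasted NT+/+ mice (log2 fold change 1.09, SE 0.36, adjusted p = 0.0338). Acvr2a, a type II receptor gene, was at 64.3 ± 6.05 CPM in fasted and 48.8 ± 5.78 CPM in those fed ad libitum, all NT-/- (log2 fold change 0.40, SE 0.12, adjusted p = 0.0223), and in NT+/+ mice its value was 0.28 (SE 0.12, adjusted p = 0.0923). Both of these calls were lost in some fits that left out 1 mouse, 5 of 19 for Tgfbr3 (adjusted p up to 0.12) and 4 of 19 for Acvr2a (up to 0.0669), and that of Acvr2a without the 2 shallowest libraries (0.31, adjusted p = 0.129). The median of the 9 was 0.06 and -0.14. Rgmb, the co-receptor gene with the most TPM, had values of 0.06 (SE 0.21, adjusted p = 0.867) and -0.33 (SE 0.22, adjusted p = 0.314) in NT+/+ and NT-/- mice.

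All 10 genes for SMADs and their regulators were tested, and 3 rose in each genotype, the same 3 genes, where 11.2% of all genes rose in NT+/+ and 12.5% in NT-/- mice and 21.6% and 25.1% were called in either direction. Smad4, the shared partner of the receptor SMADs, had a log2 fold change of 0.18 (SE 0.06, adjusted p = 0.0465) in NT+/+ and 0.29 (SE 0.07, adjusted p = 0.00274) in NT-/- mice. Ski, a repressor that binds SMADs, was at 80.7 ± 3.10 CPM in fed NT+/+ mice and 111 ± 9.66 CPM in the fasted ones (log2 fold change 0.46, SE 0.07, adjusted p = 0.000133) and at 84.1 ± 6.65 and 115 ± 8.88 CPM in their NT-/- counterparts (log2 fold change 0.45, SE 0.08, adjusted p = 0.000253). Ppm1a, a phosphatase that acts on SMADs, was at 128 ± 6.79 CPM in fed and 164 ± 5.20 CPM in fasted mice of the NT+/+ genotype (log2 fold change 0.36, SE 0.06, adjusted p = 0.000160) and at 129 ± 8.95 and 189 ± 5.58 CPM in the NT-/- genotype (log2 fold change 0.55, SE 0.06, adjusted p = 2.90e-06). The calls for Ski and Ppm1a held in both genotypes in all 19 fits that left out 1 mouse, while that for Smad4 in NT+/+ mice was lost in 11 of them (adjusted p up to 0.115). The median of the 10 was 0.11 in NT+/+ and 0.09 in NT-/- mice. Smad1 and Smad5, the receptor SMAD genes, were not called (adjusted p between 0.0629 and 0.951).

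Of 13 genes for secreted antagonists 4 were tested: 2 rose and 1 fell in NT+/+ mice, and 1 rose and 1 fell in NT-/- mice. Of all genes, 11.2% rose and 10.4% fell in NT+/+ mice, and 12.5% rose and 12.6% fell in NT-/- mice. Chrd, which encodes the BMP antagonist chordin, had 4, 7, 4, 9 and 6 counts in fed and 24, 16, 28, 17 and 12 counts in fasted NT+/+ mice, with no overlap in CPM (log2 fold change 1.85, SE 0.33, adjusted p = 0.000497), and in NT-/- mice its value was 0.76 (SE 0.34, adjusted p = 0.111). Nbl1, also an antagonist, had 0.73 (SE 0.19, adjusted p = 0.0101) in NT+/+ and 0.59 (SE 0.21, adjusted p = 0.0417) in NT-/- mice, where the block for the number of the file names gave 0.55 (adjusted p = 0.0606); the latter call was also lost in 8 of the 19 fits without 1 mouse (adjusted p up to 0.109). Twsg1, which modulates BMP binding and has the most TPM of its list, fell in both genotypes, by 0.56 (adjusted p = 0.00180) and 0.43 (adjusted p = 0.0134) on the log2 scale. The median of the 4 was 0.70 and 0.38. The stromal antagonist genes Nog and Grem1 had 0 and 26 counts over all mice.

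Of 12 other genes in a list of BMP targets, 8 were tested. In NT+/+ mice 0 were called by edgeR, beside 21.6% of all genes. Of the 8, 0 had an edgeR unadjusted p under 0.05, where 6088 of all 17877 genes did. In NT-/- mice 1 was called lower, as were 12.6% of all genes. That gene was Id4, the fourth Id gene, with 101, 72, 85 and 56 counts in fed and 30, 7, 10, 10 and 38 counts in fasted NT-/- mice (log2 fold change -1.49, SE 0.37, adjusted p = 0.00519), and -0.69 (SE 0.34, adjusted p = 0.159) in NT+/+ mice. The median of the 8 was 0.20 in NT+/+ and -0.02 in NT-/- mice. The list also holds Tcf3 and Tcf12, partners of the Id proteins rather than targets, and Tcf12 has its highest TPM. Of 7 partner genes, all tested, 0 were called in NT+/+ mice, beside 21.6% of all genes. In those mice 1 had an edgeR unadjusted p under 0.05, beside the 6088 of 17877 given above. In NT-/- mice 1 of 7 was called, beside 25.1% of all genes. This was Neurog3, the factor that specifies enteroendocrine cells, which fell (log2 fold change -1.25, SE 0.40, adjusted p = 0.0265). Its call was lost without fed NT-/- mouse 3 (adjusted p = 0.117), without fasted NT-/- mouse 2 (0.058) or 3 (0.0503), and without the 2 shallowest libraries (0.1). The median of the 7 was 0.09 and -0.01. No gene of these lists was called between the genotypes on either diet, or in the interaction of diet and genotype, by edgeR.

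**Figure D5:**
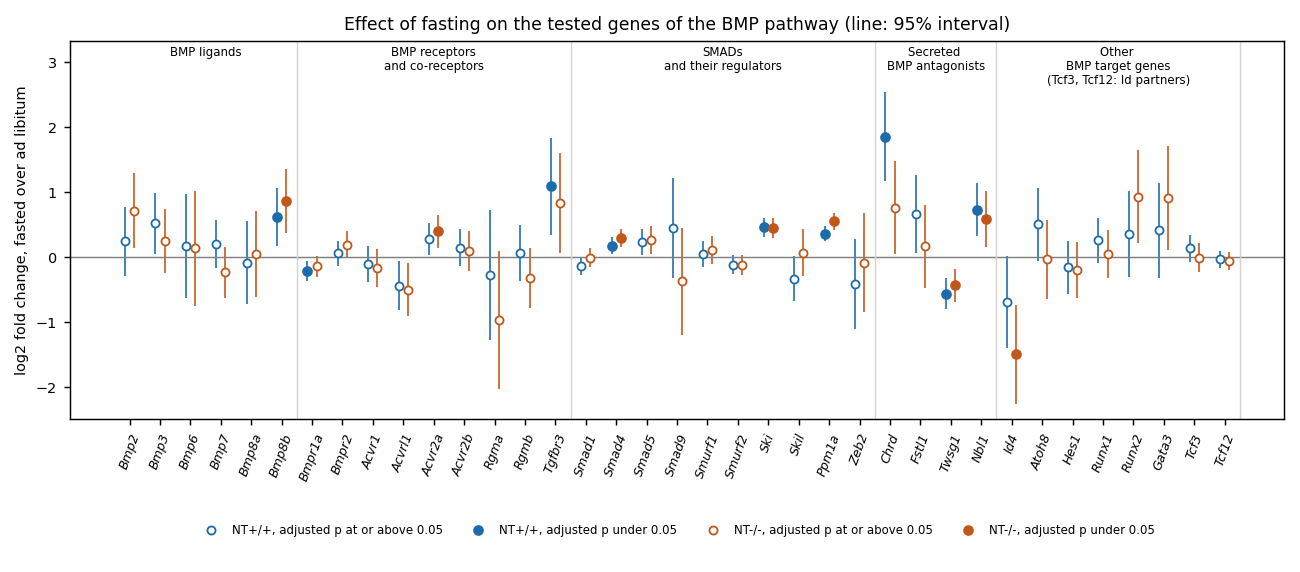
Log2 fold change of fasted over ad libitum-fed mice with its 95% interval for each tested gene of the 5 pathway lists, in NT+/+ and NT-/- mice; filled points are past an adjusted p of 0.05. Ski, Ppm1a, Smad4, Bmp8b and Nbl1 are filled above 0 and Twsg1 is filled below 0 in both genotypes.

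Fasting also moved cell type markers in these libraries. The 8 villus enterocyte markers summed to 5542 ± 1626 CPM in fed and 11049 ± 3626 CPM in fasted NT+/+ mice, and to 5781 ± 1405 and 14793 ± 2164 CPM in NT-/- mice. Of these, 7 and 8 of 8 were called higher in the 2 genotypes, beside 11.2% and 12.5% of all genes. The 5 dividing cell markers summed to 1562 ± 75.9 and 1116 ± 141 CPM in NT+/+ and to 1465 ± 54.5 and 953 ± 97.7 CPM in NT-/- mice. Of these, 3 and 4 of 5 were called lower, beside 10.4% and 12.6% of all genes. Of 5 stem cell markers 1 was called lower in NT+/+ and 2 in NT-/- mice, beside the same 10.4% and 12.6% of all genes. The part of this shift in the values of the BMP genes was not tested. Of the 6 stromal fibroblast markers 4 passed the filter and 0 were called in either genotype by edgeR, beside 21.6% and 25.1% of all genes. Of these, 0 had an edgeR unadjusted p under 0.05, beside 6088 of all 17877 genes in NT+/+ and 6524 in NT-/- mice. Pdgfra had 39 counts over all mice.

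Apart from the 9 genes, those whose levels were most like Id1 over the 19 mice were Ndufaf8 (r = 0.799), Arhgef19 (0.784), Coasy (0.783), Aatf (0.762) and the immediate early gene Fos (0.757). By deviations from group means, where Id3 had r = 0.861, they were Piezo1 (r = 0.869), Arhgef19 (0.864), the secretin gene Sct (0.852), Nt5c (0.836) and Ndufaf8 (0.831). For Bmp2 they were Sipa1l2 (r = 0.884), Tent5a (0.81), Ikbkg (0.801), Bach1 (0.801) and Atp8a1 (0.783) by level, and Etv3 (0.932), Sipa1l2 (0.874), Duoxa2 (0.79) and Ms4a8a (0.773) by deviation. None of the genes named here for Id1 was among those named for Bmp2.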

How the data were processed

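Total RNA of crypts from 19 mice was sequenced single-end after ribosomal RNA depletion, 1 library per mouse. The authors trimmed reads with Trimmomatic 0.39 and estimated expected counts per gene with RSEM (version not given in the sources used here) on GRCm38, and the deposited tables hold these expected counts beside the deposited TPM. Whether counting used strand is not given. Groups came from the titles, also for the mouse whose genotype label disagrees.

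Expected counts were rounded (13.1% of values were not whole), filtered with filterByExpr, which left 17877 of 55487 genes, and tested with edgeR 4.0.16 in R 4.3.3 (quasi-likelihood, TMM, 4 groups of 19 mice in 1 fit, 15 residual degrees of freedom) with Benjamini-Hochberg adjustment over all genes tested. Depth was 9059478 to 35068719 counts per library. The biological coefficient of variation was 18.9%. Levels between genes were compared in TPM. Plots and correlations used Python 3.11.15 and scipy 1.17.1, and log2(CPM + 1).

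The 9 genes were given at their level in every mouse. Pathway genes were named where called in at least 1 comparison or highest in TPM in their list, and the 5 genes outside the 9 most like Id1 and Bmp2 were named, apart from 1 that is not reported here. The genes and lists were chosen with earlier results of these data known. Steps were tested on simulated data.

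Same-numbered mice deviated together: by the number of the file names, 27 pairs had a mean r of 0.284 (26 over 0.1) and 108 other pairs -0.0705, and within each comparison every pair was over 0.1. By the number of the titles the mean was 0.231 (22 over 0.1). The alternatives were DESeq2 1.42.0, upper quartile scaling, no filter, a filter of 10 counts in every mouse, both numbers as a block, sex, the fit of only the groups compared, regrouping of the mouse with disagreeing labels, and leaving out each mouse. The fit with sex left out the 1 mouse without a sex label.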

Additional observations from a re-analysis of the deposited data

Results flagged for a closer look

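In the 4 groups of 20 genes, 80 groups of values, a mouse stood apart from its group by Dixon's criterion in 2, where chance gives about 1 in 20. Bambi was at 26.3 CPM in fasted NT-/- mouse 1, while the next highest mouse of that group had 14.2 CPM, a gap of 0.758 of the group's range. Acvr2a, a type II receptor gene, was at 57.4 CPM in fed NT-/- mouse 4, with the next highest at 46.8 CPM and a gap of 0.864 of the range.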

How the results depend on the processing

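Of 1095 values of 38 single-gene results under the alternatives, 1001 kept their direction and their side of the threshold, 71 lost a call, 8 gained a call and 15 changed direction. On fasting in NT-/- mice, 0 of the 9 genes and 4494 of all 17877 were called in the main fit. With DESeq2 1 of the 9 was called, beside 4727 of all 17877 genes. With sex as a covariate and without the mouse that has no sex label it was 1, beside 4109 of 17744. The number of the titles as a replicate block gave 1, beside 5660 of 17877. The number of the file names as a replicate block gave 2 (Bmp2 and Bmpr2), beside 5671 of 17877. Leaving out each mouse gave 0 to 1, beside 3447 to 4759 of all genes. In NT+/+ mice the main fit called 1 of the 9 and 3864 of all 17877 genes. The 1 became 0 without a filter (3077 of 34635 genes called) and 0 with only the groups compared in the fit (3362 of 16669). It became 0 without the 2 shallowest libraries (3807 of 18080), an alternative added after seeing the data. When each mouse was left out it was 0 to 1 (3020 to 3971 genes called). Between the genotypes, the 1 gene called of all genes became 0 in fed and 0 in fasted mice with at least 10 counts in every mouse, which removes Nts from the test, or with the mouse of disagreeing labels regrouped, 3 and 101 with DESeq2, and 1 to 4 in fasted mice when each mouse was left out (4 without fasted NT-/- mouse 1). The cause was not tested. Id1 in NT-/- mice (0.05) changed direction with the number of the titles as a block (-0.022) and that of the file names (-0.080), and ran from -0.11 to 0.19 when each mouse was left out. With sex as a covariate, and without the mouse that has no sex label, it was -0.14. Without fasted NT-/- mouse 5 and with no covariate Id1 was -0.11, and the part of sex itself was not tested. Id3 in NT-/- mice was 0.0057 without the 2 shallowest libraries. When each mouse was left out, Bambi in NT-/- mice ran from -0.0058 to 0.43, Id1 in NT+/+ mice from -0.15 to 0.26, Id2 from -0.14 to 0.12 and Smad7 from -0.33 to 0.064. The block changed no other call of the 9 genes.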
